A study of Homo sapiens with 8 samples.

Results

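SBO06 is 1 of 12 barcoded cultures of HMLE, an immortalised line from human breast epithelium in which the growth factor TGF-β sets off epithelial-to-mesenchymal transition (EMT). The study asks how TGF-β-induced EMT passes through intermediate states, and what the G-quadruplex ligand pyridostatin does to it. Each culture was tagged with a short barcoded oligonucleotide (SBO), the cultures were pooled, and single-cell transcripts were measured as unique molecular identifiers (UMIs) with a 10x Genomics 5' kit. SBO06 was present in libraries 1 and 2, together with SBO01 to SBO05, and was the highest barcode in 0 of the kept cells of libraries 3 and 4. No label says which barcode had TGF-β or pyridostatin, or for how long, so the cultures are called by their barcodes and the agents that SBO06 received are not known here. Members of SBO06 were cells that passed a minimum of 1000 genes and a maximum of 15% mitochondrial UMIs, that HTODemux, a caller of sample barcodes, named as singlets of SBO06, and in which SBO06 was the highest barcode. They numbered 1062 of the 22147 kept cells of the series, with 589 in library 1 and 473 in library 2. SBO06 is compared with SBO02 (450 cells), SBO03 (876 cells) and SBO04 (294 cells), the cultures nearest to it, and SBO01 (1615 cells) is given beside them where it helps to place a value.

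Interferons are secreted alarm proteins that act through transcription factors that include STAT2 and IRF9 to switch on a shared set of antiviral genes and, with them, antigen presentation on class I molecules. TGF-β signals through SMAD proteins and, in mammary epithelial cells, induces fibronectin and other matrix genes together with inhibitors of the cell cycle. Follistatin, the product of FST, binds and neutralises activins, which belong to the same family of growth factors as TGF-β. All of these are described here as background, and none was measured as a protein.

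The barcodes are shown because the identity of the culture rests on them alone. Each is 15 bases, and capitals mark bases that differ from SBO06 at the same position, counted from the 5′ end as deposited.
SBO06: cactccttgacaggt
SBO02: AGcGAACCgCcGCTG
SBO03: GTGCAAGAgTTGgCG
SBO04: GaAGAAGCgTTaTTC
SBO02 differs from SBO06 at 12 bases, SBO03 at 13 and SBO04 at 12. In SBO06 cells the median was 478 and 489 UMIs of the own barcode in libraries 1 and 2, with 35 and 32 UMIs of the next barcode. The medians of the own barcode were 213 and 201 UMIs in SBO02 cells, 1012.5 and 830.5 UMIs in SBO03 cells and 247 and 350 UMIs in SBO04 cells. SBO06 was the highest barcode in 1381 and 940 kept cells, and 42.7% (40.0 to 45.3%) and 50.3% (47.1 to 53.6%) of these became members, with exact 95% binomial intervals that cover counting error only. Most of the remainder were called doublets (394 and 198 cells) or negative (365 and 249 cells). A further 7 and 5 singlets of SBO06 had another barcode higher and were left out, as were 67 and 47 of SBO02, 3 and 0 of SBO03, and 39 and 19 of SBO04. Between libraries 1 and 2, 347 cell barcodes were shared (116 among kept cells), and these were treated as different cells.

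The summed UMIs of SBO06 were 14687035 in library 1 and 14180600 in library 2, against 3545175 to 11450250 per library in the other 3 cultures, and the median depth of SBO06 cells was 24644 and 30686 UMIs. The median mitochondrial share was 1.30 and 1.33% in SBO06, against 1.17 to 1.41% in the others. Levels are CPM, the UMIs of a gene in the summed cells scaled to a common total, and differences are on the log2(CPM + 1) scale, which understates differences of low genes. Libraries 1 and 2 are loads of 1 pool, so there is 1 culture per barcode, no test was made, and the spread between libraries is technical. Over the 6301 genes that averaged 20 CPM or more, the SD of the difference between libraries was 0.12 in SBO06, 0.16 in SBO02, 0.14 in SBO03 and 0.18 in SBO04, and 14, 34, 20 and 96 genes differed by at least 0.5. Intervals for single levels are exact 95% Poisson intervals, which also cover counting error only.

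SBO06 cells carried the markers of mammary epithelium. KRT18, a keratin of simple epithelia, stood at 5712 and 5936 CPM in SBO06, against 4769 to 5716 CPM in the other 3 cultures, and KRT5, a basal keratin, at 518 and 630 CPM, against 473 to 563 CPM. All 12 epithelial markers reached 20 CPM on average, with median differences of -0.02, -0.02 and -0.03 from SBO02, SBO03 and SBO04. The 8 leukocyte markers summed to 23.5 and 22.1 CPM in SBO06, against 19.8 to 32.6 CPM in the others, and 5 of them had no UMI in SBO06. The 8 endothelial markers summed to 3.13 and 3.03 CPM, against 2.17 to 5.60 CPM, and none of them was at 0 in SBO06. The 8 stromal fibroblast markers summed to 86.2 and 92.8 CPM, against 92.9 to 138 CPM, and 2 were at 0. Cells with more mesenchymal than epithelial UMIs made up 12.7 and 14.4% of SBO06, against 14.2 and 20% of SBO02, 14.0 and 25% of SBO03 and 15 and 11.8% of SBO04.

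Few genes set SBO06 apart from all 3 cultures in both libraries, and most of those that did were lower. Across genes, which are not independent replicates, SBO06 correlated with SBO02, SBO03 and SBO04 at 0.988 to 0.992, and with SBO01 at 0.962 and 0.963. A gene was called when SBO06 differed by at least 0.5 from each of the 3 cultures within each library, which makes 6 comparisons. By this rule 12 of 6301 genes (0.19%) were lower and 2 (0.0317%) were higher. The 12 were 7 interferon-stimulated genes (CMPK2, MX2, RSAD2, IFI27, IFI44L, OAS1 and MX1) and TGFBI, IGFL1, CNTNAP2, NMU and GABRP, and the 2 were FST and IL1B. FST and IL1B reached the mean of 20 CPM through SBO06, with means of 15.1 and 17.8 CPM over the other 3 cultures, and 5 of the 12 (CMPK2, MX2, RSAD2, CNTNAP2 and GABRP) reached it through the other 3, with means under 20 CPM in SBO06. Such genes had to differ to be counted, so both counts are descriptions. Without library 1 the counts were 47 lower and 5 higher, and without library 2 they were 19 and 4, from 3 comparisons each. MDK, IFIT1 and XAF1 came next on the lower side and narrowly missed the rule. Against single cultures, 67 genes (1.06%) were lower and 4 (0.0635%) higher than in SBO02 by 0.5 in both libraries, 63 (1%) and 18 (0.286%) than in SBO03, and 47 (0.746%) and 19 (0.302%) than in SBO04. With the size set aside, 893 genes (14.2%) were lower and 627 (9.95%) higher in all 6 comparisons, and the counts of list members that follow are read against these shares. The comparisons share the SBO06 cells, so their values are given side by side.

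**Figure D1:**
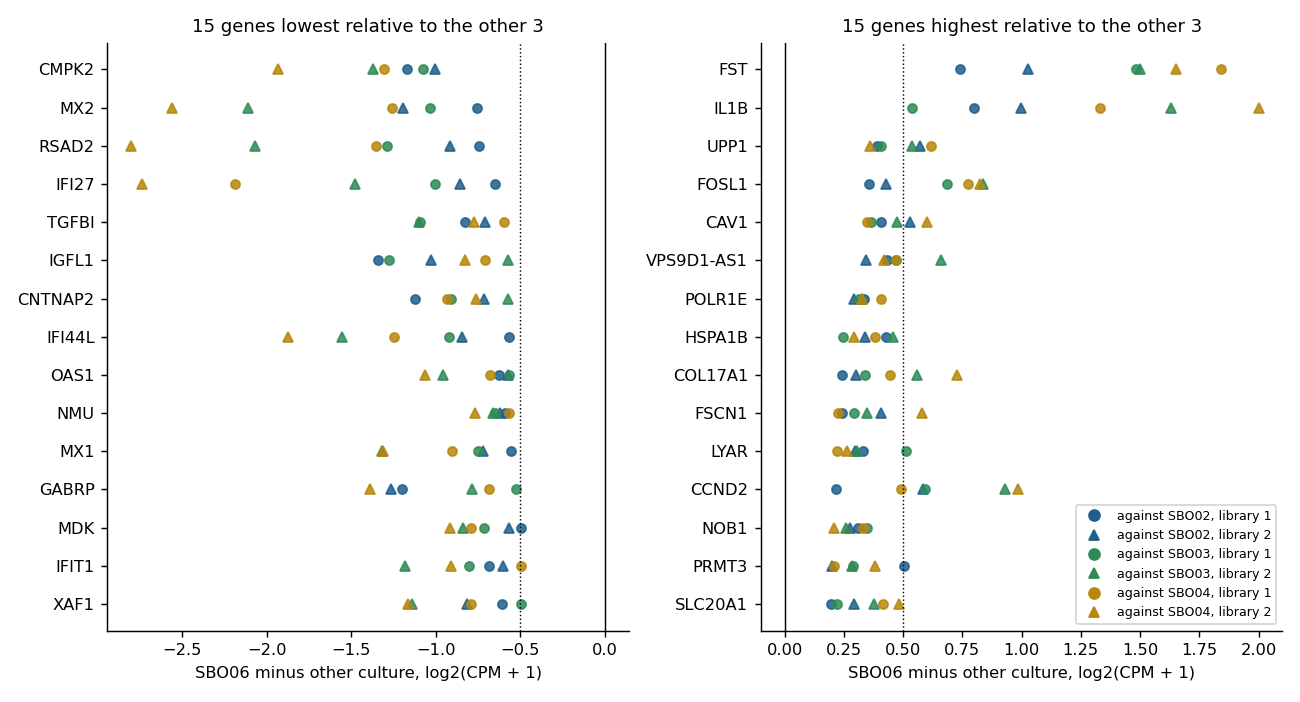
Difference of SBO06 from SBO02, SBO03 and SBO04 in log2(CPM + 1) for the 15 genes lowest and the 15 highest in SBO06, ordered by the smallest of their 6 differences, with 1 point per comparison and library and a dotted line at 0.5. The 12 genes from CMPK2 to GABRP lie wholly beyond the line on the lower side, and FST and IL1B on the higher side.

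Interferon-stimulated genes were lower in SBO06 than in the other 3 cultures almost throughout. Of the 30 members tested, 29 were lower in all 6 comparisons (893 of all genes, 14.2%) and 0 were higher, and the exception was OASL. The median difference over the list was -0.56 from SBO02, -0.70 from SBO03 and -0.65 from SBO04, against -0.02, -0.01 and -0.02 over all genes. The 30 genes summed to 3294 and 2760 CPM in SBO06, against 4547 and 4205 CPM in SBO02, 4874 and 5458 CPM in SBO03 and 5537 and 6110 CPM in SBO04. SBO06 was thus the lowest of the 4 in each library, with no overlap, and SBO01 stood lower again at 796 and 863 CPM.

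CMPK2, a mitochondrial kinase of nucleotides induced by interferon, had 16.6 and 15.2 CPM in SBO06, against 38.6 and 31.6 CPM in SBO02, 36.1 and 41.0 CPM in SBO03 and 42.6 and 60.9 CPM in SBO04. It was the only gene lower by at least 1 in all 6 comparisons. Over both libraries its level was 15.9 CPM (14.5 to 17.5) in SBO06, against 35.3 CPM (31.8 to 39.1) in SBO02, the nearest culture. RSAD2, or viperin, which blocks viral replication, had 16.9 and 12.4 CPM in SBO06, against 29.1 and 24.3 CPM in SBO02, 42.9 and 55.3 CPM in SBO03 and 44.9 and 92.5 CPM in SBO04. CMPK2 and RSAD2 are neighbours on chromosome 2 of GRCh38, on opposite strands at 6840570 to 6866635 and 6865806 to 6898239 in GENCODE. They overlap at their starts. The strand setting of the counting is not given in the sources used here, so whether reads in the overlap were separated by strand is not known.

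IFI27, a mitochondrial protein gene that responds strongly to type I interferon, showed the widest mean gap to SBO04, although RSAD2 was further from SBO04 in library 2. It had 160 and 107 CPM in SBO06, against 252 and 195 CPM in SBO02, 323 and 299.8 CPM in SBO03 and 734 and 720.4 CPM in SBO04. Its order over the cultures was the same in both libraries, with SBO06 lowest of the 4. MX1, a GTPase that traps viral nucleocapsids, had 298 and 240 CPM in SBO06, against 438 and 395 CPM in SBO02, 502 and 600 CPM in SBO03 and 559 and 597 CPM in SBO04. SBO03 and SBO04 changed places between the libraries for MX1, and SBO06 stayed below all of them. MX2, its relative, averaged -1.49 below the others, IFI44L -1.17 and OAS1, a sensor of double-stranded RNA, -0.75.

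The members of smallest difference were DDX60 at -0.32, an RNA helicase, and OASL at -0.27, an inactive relative of the OAS enzymes. OASL had 115 and 94.7 CPM in SBO06, against 107 and 105 CPM in SBO02, 130 and 161 CPM in SBO03 and 119.9 and 142 CPM in SBO04. In library 1 it was therefore above SBO02. The factors STAT2, IRF9 and IRF7, which carry or amplify the signal, had average differences of -0.51, -0.40 and -0.54, and each was lower in all 6 comparisons. STAT2 and IRF9 belong to the list and are already in its count, so they are no separate result. The members past 0.5 in all 6 comparisons were 7 of 30 (12 of all genes, 0.19%), and 3 of the 7, RSAD2, MX2 and CMPK2, were under 20 CPM in SBO06.

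**Figure D2:**
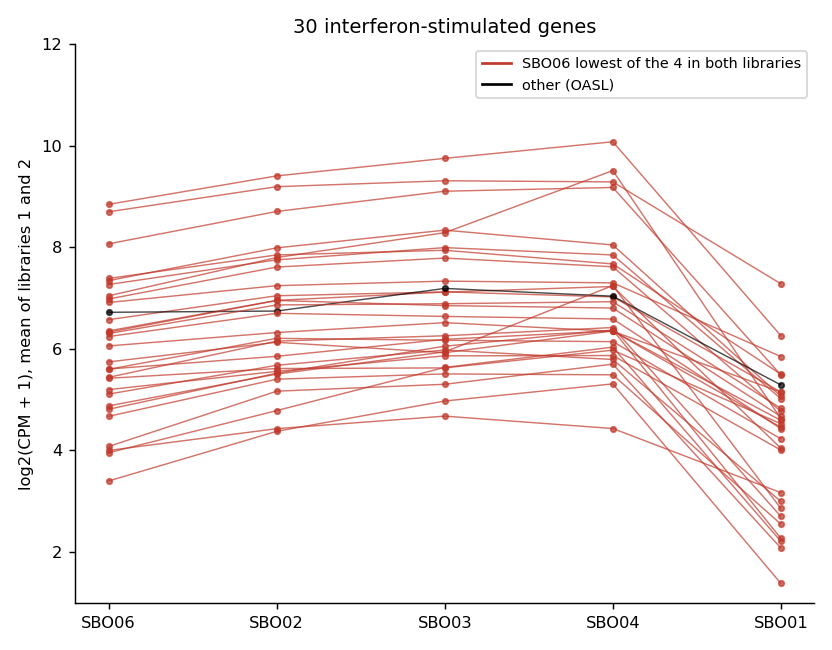
Levels of the 30 interferon-stimulated genes in log2(CPM + 1), averaged over libraries 1 and 2, in SBO06, SBO02, SBO03, SBO04 and SBO01, with 1 line per gene. All lines but that of OASL belong to genes that were lower in SBO06 than in each of the next 3 cultures in both libraries, and every line is lowest at SBO01.

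Promoters of 3 of these genes are shown because they hold the core of the interferon-stimulated response element, a site of binding of the factors that interferon activates. They run from 250 bases before to 50 after the RefSeq gene start on GRCh38.p14, plus strand, and capitals mark GAAA, any 2 bases and GAAA again, on either strand, where overlapping copies count once each.
IFI27, chr14:94110486-94110785: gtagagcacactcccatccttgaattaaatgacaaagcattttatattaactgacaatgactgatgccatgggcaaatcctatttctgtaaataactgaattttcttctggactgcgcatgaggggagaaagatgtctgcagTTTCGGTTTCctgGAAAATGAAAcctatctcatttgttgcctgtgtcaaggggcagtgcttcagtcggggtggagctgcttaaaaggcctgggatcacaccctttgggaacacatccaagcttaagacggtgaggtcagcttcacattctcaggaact
IFI44L, chr1:78620198-78620497: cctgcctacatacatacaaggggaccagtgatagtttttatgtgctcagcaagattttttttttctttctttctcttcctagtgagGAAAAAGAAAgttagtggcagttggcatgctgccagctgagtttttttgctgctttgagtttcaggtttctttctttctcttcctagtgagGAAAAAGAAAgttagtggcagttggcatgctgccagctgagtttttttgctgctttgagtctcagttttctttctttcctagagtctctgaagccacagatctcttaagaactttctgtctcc
IFIT1, chr10:89392373-89392672: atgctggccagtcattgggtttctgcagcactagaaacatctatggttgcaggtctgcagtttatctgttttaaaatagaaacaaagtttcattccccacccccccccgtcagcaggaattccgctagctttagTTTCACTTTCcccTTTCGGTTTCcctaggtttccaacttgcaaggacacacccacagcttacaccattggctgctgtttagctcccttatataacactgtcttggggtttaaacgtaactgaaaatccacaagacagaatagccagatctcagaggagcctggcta
Each holds 2 copies, and the first lies 108 bases before the start in IFI27, 164 in IFI44L and 116 in IFIT1. Of the 30 interferon-stimulated genes, 22 matched a promoter in the table, and 16 of the 22 (72.7%) held the motif. It was found in 159 of 5164 matched promoters of the genes tested (3.08%) and in 996 of all 27305 promoters (3.65%). Among the 15 genes named as lowest in SBO06, 13 matched and 4 held it, and among the 15 highest, 11 matched and 1, COL17A1, held it. The matched promoters of the interferon-stimulated genes CMPK2, RSAD2, OAS1 and XAF1 held no copy. A match is a description of letters and not a site of binding. The search for G-quadruplex motifs (4 runs of at least 3 G with loops of 1 to 7 bases, on either strand) found them in 2 of the 13 promoters of lower genes, 2 of the 11 of higher genes and 33.2% of those of all genes tested.

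The lower level was seen across the distribution of SBO06 cells, since the median and both quartiles were below those of the other 3 cultures in each library. With each cell thinned to 10000 UMIs, the median SBO06 cell held 21 interferon-list UMIs in library 1 (quartiles 9 and 41) and 18 in library 2 (9 and 37). The medians were 32 and 32 UMIs in SBO02, 38 and 35 UMIs in SBO03 and 43 and 43 UMIs in SBO04, and the median SBO01 cell held 4 UMIs in each library. Without thinning, the summed level of the list in SBO06 is the 3294 and 2760 CPM given above. Cells at or below the SBO01 median of 4 were 7.77% (5.63 to 10.4%) and 8.55% (6.06 to 11.6%) of SBO06. They were 6.05 and 5.59% of SBO02, 1.90 and 4.32% of SBO03 and 3.01 and 2.59% of SBO04, against 51.1 and 55.5% of SBO01. The binomial interval of SBO06 overlapped those of SBO02 and SBO04 in both libraries and that of SBO03 in library 2. Thinning left out 61 and 52 cells of SBO06, 45 and 29 of SBO02, 71 and 60 of SBO03 and 34 and 11 of SBO04 as too shallow.

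**Figure D3:**
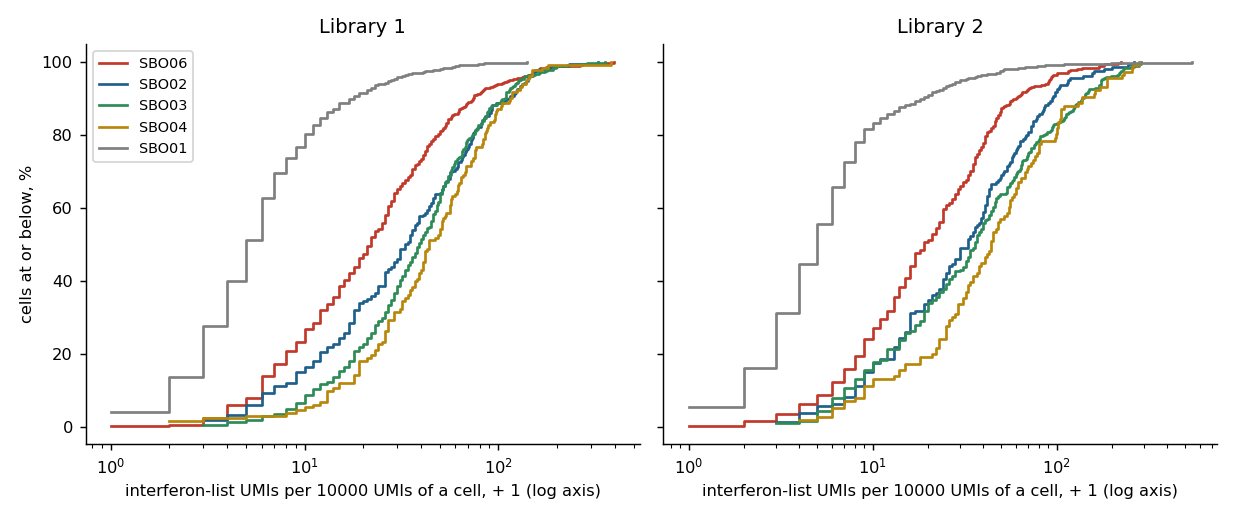
Cumulative share of cells (%) by the number of interferon-list UMIs per 10000 UMIs of a cell plus 1, on a log axis, for SBO06, SBO02, SBO03, SBO04 and SBO01 in libraries 1 and 2. The SBO06 curve lies between that of SBO01 and those of the other 3 through most of its range, with medians of 21 and 18 UMIs.

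Genes of class I antigen presentation and the interferon gamma response were lower as well, by smaller amounts. Of 15 members tested, 12 were lower in all 6 comparisons and 0 higher, beside 14.2% of all genes, with median differences of -0.36, -0.20 and -0.31 from SBO02, SBO03 and SBO04. HLA-B, a class I heavy chain, had 475.5 and 443 CPM in SBO06, against 754 and 759.6 CPM in SBO02, 624 and 712 CPM in SBO03 and 893 and 821 CPM in SBO04. SBO06 was below every other value, and HLA-F, a less variable class I chain, averaged a difference of -0.51. B2M, the light chain of class I molecules, averaged -0.31 at 2339 and 2184 CPM in SBO06, against 2603 to 3008 CPM in the others. IRF1, a factor induced by interferon gamma, and the immunoproteasome subunit PSMB10 averaged -0.10 and -0.01 and were not lower throughout, and neither was the peptide transporter TAP2. The HLA heavy chains are near copies of each other. How reads shared between them were counted is not known here, so their single values are uncertain.

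Fibronectin, SPARC, tenascin C and the type IV collagens were lower in SBO06, whereas the laminin chains LAMB1 and LAMC1 stood level. Of 22 listed matrix genes 9 reached 20 CPM. Of these, 5 were lower in all 6 comparisons and 0 higher, beside 14.2% and 9.95% of all genes. The medians were -0.50, -0.69 and -0.18 from SBO02, SBO03 and SBO04. FN1, fibronectin, had 1565 and 1701 CPM in SBO06, against 2985 and 3007 CPM in SBO02, 2872 and 3436 CPM in SBO03 and 2296 and 2338 CPM in SBO04. SBO06 was clear of all 3, with SBO04 the nearest. SPARC, a matrix protein that binds collagen, had 362 and 378.5 CPM in SBO06, against 508 to 731 CPM in the other 3 cultures. COL4A1 and COL4A2, chains of type IV collagen, averaged -0.66 and -0.47, and TNC, tenascin C, -0.61. LAMB1 and LAMC1 averaged -0.06 and -0.01.

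TGF-β targets differed among themselves. Of 16 tested, 6 were lower in all 6 comparisons (CDKN2B, TGFBI, SKIL, PMEPA1, BHLHE40 and TGFB1) and 3 were higher (CCN1, TIMP3 and CCN2), beside 14.2% and 9.95% of all genes. CDKN2B, an inhibitor of cyclin-dependent kinases, had 50.5 and 53.6 CPM in SBO06, against 101.5 and 110.5 CPM in SBO02, 132 and 127 CPM in SBO03 and 69.9 and 115.5 CPM in SBO04. It narrowly missed the rule of 0.5 through SBO04 in library 1. TGFBI, a secreted matrix protein named for its induction by TGF-β, had 171 and 190.3 CPM in SBO06, against 303.5 and 312 CPM in SBO02, 365 and 408 CPM in SBO03 and 259 and 327 CPM in SBO04. SKIL, a repressor of SMAD signalling, and PMEPA1, which also restrains it, averaged -0.67 and -0.66. CCN2, a matricellular protein that the factor YAP also controls, had 43.4 and 51.0 CPM in SBO06, against 37.6 and 36.6 CPM in SBO02, 40.5 and 40.6 CPM in SBO03 and 29.9 and 28.5 CPM in SBO04.

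**Figure D4:**
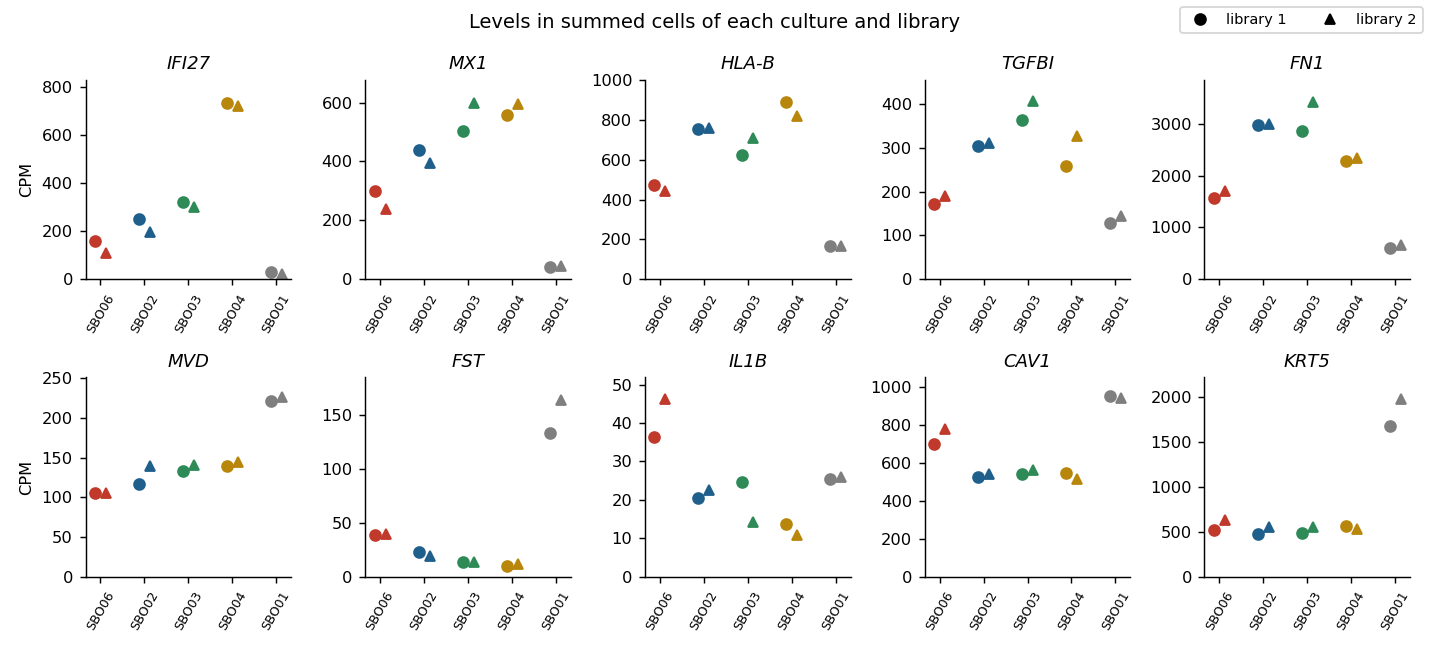
Levels in CPM of 10 genes in the summed cells of SBO06, SBO02, SBO03, SBO04 and SBO01, with a circle for library 1 and a triangle for library 2, on axes that start at 0. SBO06 is the lowest of the first 4 cultures for IFI27, MX1, HLA-B, TGFBI, FN1 and MVD and the highest for FST, IL1B and CAV1.

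Mesenchymal markers also differed among themselves. Of the 5 that reached 20 CPM, FN1, TAGLN and SPARC were lower in all 6 comparisons and none was higher, beside 14.2% and 9.95% of all genes. The medians over the 5 were -0.50, -0.94 and -0.05 from SBO02, SBO03 and SBO04. In thinned cells, the median sum of the 12 listed markers, to which FN1 gave most CPM, was 16 and 17 UMIs in SBO06. It was 27 and 32 UMIs in SBO02, 33 and 35 UMIs in SBO03 and 25 and 29 UMIs in SBO04. TAGLN, an actin-binding protein, had 66.0 and 50 CPM in SBO06 and stood close to SBO04, at 66.6 and 53.5 CPM, against 107 to 153 CPM in SBO02 and SBO03. VIM, vimentin, had 320.5 and 265 CPM in SBO06, against 216 and 233 CPM in SBO02, 213 and 299.5 CPM in SBO03 and 244 and 332 CPM in SBO04, so its values overlapped between cultures. None of the 13 EMT transcription factors reached 20 CPM on average, and they summed to 92.9 and 97.0 CPM in SBO06, against 93.7 to 111 CPM in the others. Among 15 genes of partial EMT and invasion, TGFBI was lower and the integrin ITGA3 higher in all 6 comparisons.

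Genes of cholesterol synthesis were slightly lower in SBO06. Of 19 tested, 13 were lower in all 6 comparisons and 0 higher, beside 14.2% of all genes, with medians of -0.19, -0.26 and -0.21. The count was 8 under the top barcode rule and 9 with TMM scaling. MVD, an enzyme of the mevalonate pathway, had 105 and 106 CPM in SBO06, against 116.5 and 139.8 CPM in SBO02, 133 and 141 CPM in SBO03 and 139 and 144.5 CPM in SBO04. Its differences averaged -0.36, and SBO06 was below every other value. SC5D, a late enzyme of the pathway, averaged 0.03. The list summed to 2567 and 2659 CPM in SBO06, against 2831 to 3227 CPM in SBO02, SBO03 and SBO04. Here SBO01 was on the other side, at 3946 and 4172 CPM.

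Genes of the p53 response were lower in part. Of 14 tested, 7 were lower in all 6 comparisons and 0 higher, beside 14.2% and 9.95% of all genes. The medians were -0.29, -0.14 and -0.15 from SBO02, SBO03 and SBO04. The count was 3 with cells thinned to equal depth and 11 without library 1. TP53I3, a quinone reductase induced by p53, averaged -0.51, at 66.6 and 70.2 CPM in SBO06, against 80.1 to 108 CPM in the others. ATF3, a stress-induced factor, averaged -0.43 and was not lower throughout, PMAIP1, which promotes cell death, averaged -0.05, and PLK2, a kinase induced by p53, 0.06. CDKN1A, the cell cycle inhibitor p21, had 196 and 219 CPM in SBO06, against 372 and 440 CPM in SBO02, 239.5 and 227 CPM in SBO03 and 166 and 254 CPM in SBO04, so SBO04 was below it in library 1.

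The remaining lower genes were IGFL1, NMU, GABRP and CNTNAP2, with MDK just outside the rule. IGFL1, a small secreted protein of the skin, had 80.4 and 92.2 CPM in SBO06, against 205 and 189 CPM in SBO02, 196 and 138 CPM in SBO03 and 132 and 164 CPM in SBO04. NMU, the neuropeptide neuromedin U, had 124.5 and 114 CPM in SBO06, against 188 and 176 CPM in SBO02, 195.5 and 182 CPM in SBO03 and 185 and 195 CPM in SBO04. Its differences were the most even of the 12, since the other 3 cultures lay close together. GABRP, a subunit of GABA receptors, and CNTNAP2, an adhesion protein of the neurexin family, averaged -0.98 and -0.84 from levels of 13.8 to 16.5 CPM in SBO06. MDK, the heparin-binding growth factor midkine, averaged -0.72.

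FST and IL1B were the 2 genes higher in SBO06 by 0.5 throughout. FST, which encodes follistatin and lies on chromosome 5 at 53480409 to 53487134 of GRCh38, had 38.9 and 39.4 CPM in SBO06, against 22.9 and 18.8 CPM in SBO02, 13.3 and 13.3 CPM in SBO03 and 10.2 and 11.9 CPM in SBO04. Over both libraries its level was 39.2 CPM (36.9 to 41.5) in SBO06, against 21.0 CPM (18.3 to 24.0) in SBO02. The level in SBO06 was even between libraries, and SBO01 had 133 and 163 CPM. The mean difference was 1.37, and it was 0.67 under the rule that assigns cells by their top barcode, where FST no longer passed. The 5 cells with the most FST held 22.6 and 22.7% of its UMIs in SBO06, and without them the level was 30.5 and 30.9 CPM. Without their own 5 highest cells, SBO02 had 14.0 and 11.1 CPM, SBO03 10.5 and 10.3 CPM and SBO04 7.02 and 7.17 CPM. Those cells held 40.2 and 43.0% of FST UMIs in SBO02, 21.7 and 24.1% in SBO03 and 33.3 and 42.2% in SBO04. The cultures differ in cell number, so 5 cells weigh unequally and these gaps are not set against those of all cells.

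IL1B, the inflammatory cytokine interleukin 1 beta, had 36.3 and 46.3 CPM in SBO06, against 20.4 and 22.7 CPM in SBO02, 24.7 and 14.3 CPM in SBO03 and 13.8 and 10.8 CPM in SBO04. SBO01 had 25.4 and 26.0 CPM, so SBO06 was the highest of these 5 cultures. The 5 highest cells held 28.1 and 40.9% of the IL1B UMIs of SBO06. Without them IL1B stood at 26.4 and 27.7 CPM. Without their own 5 highest cells, SBO02 had 14.8 and 11.3 CPM, SBO03 15.9 and 10.3 CPM and SBO04 5.58 and 6.32 CPM. Those cells held 29.2 and 51.8% of IL1B UMIs in SBO02, 36.4 and 29.1% in SBO03 and 61.2 and 43.9% in SBO04. Here too 5 cells weigh unequally, and the gaps are not set against those of all cells. With every cell thinned to 10000 UMIs, neither FST nor IL1B passed the rule of 0.5 in all 6 comparisons, although their mean differences were 1.15 and 1.23, against 1.37 and 1.22 without thinning. Of 11 genes of NF-κB and cytokines, IL1B alone was higher in all 6 comparisons and 0 were lower, beside 9.95% and 14.2% of all genes. CXCL1 and IL1A, also inflammatory, averaged 0.62 and 0.46 with overlapping groups, and IL32 -0.50.

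The other genes named as highest differed by less. FOSL1, an AP-1 factor of invasive epithelial cells, had 79.7 and 82.4 CPM in SBO06, against 62.1 and 61.1 CPM in SBO02, 49.2 and 45.8 CPM in SBO03 and 46.3 and 46.1 CPM in SBO04. CCND2, a cyclin of the first gap phase, had 141 and 166 CPM in SBO06, against 121 and 110.5 CPM in SBO02, 92.8 and 86.7 CPM in SBO03 and 99.9 and 83.3 CPM in SBO04. CAV1, the coat protein of caveolae, had 699 and 782.5 CPM in SBO06, against 527 and 542 CPM in SBO02, 543 and 563 CPM in SBO03 and 549 and 516 CPM in SBO04. SBO06 was above each of the 3 in both libraries for these genes, and so it was for UPP1, an enzyme of uridine breakdown, FSCN1, which bundles actin, and SLC20A1, a phosphate transporter, at mean differences of 0.48, 0.35 and 0.33. VPS9D1-AS1, an antisense RNA, averaged 0.47. Whether its reads were separated by strand from those of its partner gene is not known here. NOB1, a nuclease that matures the small ribosomal subunit, and PRMT3, an arginine methyltransferase, averaged 0.29 and 0.31.

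Heat shock genes were slightly higher in SBO06. Of 11 tested, 10 were higher in all 6 comparisons, beside 9.95% of all genes, and HSPB1 was lower, with medians of 0.24, 0.18 and 0.14 from SBO02, SBO03 and SBO04. HSPA1A, an inducible chaperone, had 487 and 599 CPM in SBO06, against 349 and 446 CPM in SBO02, 429 and 416 CPM in SBO03 and 375 and 453 CPM in SBO04. It averaged 0.40 and its near-identical copy HSPA1B 0.36, and how reads shared by both were counted is not known here. HSPH1, a partner of these chaperones, averaged 0.09, and the small chaperone HSPB1 -0.23.

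Genes of ribosome biogenesis, a list added after values had been seen, were higher in all 6 comparisons in 20 of 42 cases (9.95% of all genes) and lower in 1 (DDX10). The count of higher genes was 14 with cells thinned to 10000 UMIs and 28 with TMM scaling. The medians were 0.19, 0.18 and 0.09. RRP8, POLR1E and LYAR, which act in ribosomal RNA production, averaged 0.34, 0.33 and 0.32, with POLR1E at 0.20 in thinned cells, and DDX10 and FBL, the methyltransferase fibrillarin, -0.17 and -0.02. Of 11 genes of glycolysis and hypoxia, 6 were higher and 0 lower, beside 9.95% and 14.2% of all genes. The 6 became 3 with all singlets, with thinned cells or without cells richer in mesenchymal UMIs. Among the 6 were LDHA and ENO1 at 0.19 and 0.17, while SLC2A1 and P4HA1 averaged -0.07 and -0.11. Of 10 YAP targets, CCN2, CRIM1 and CCN1 were higher and 0 were lower, beside the same shares of all genes. PTPN14, AMOTL2 and TEAD1 averaged -0.01, -0.03 and -0.07.

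**Figure D5:**
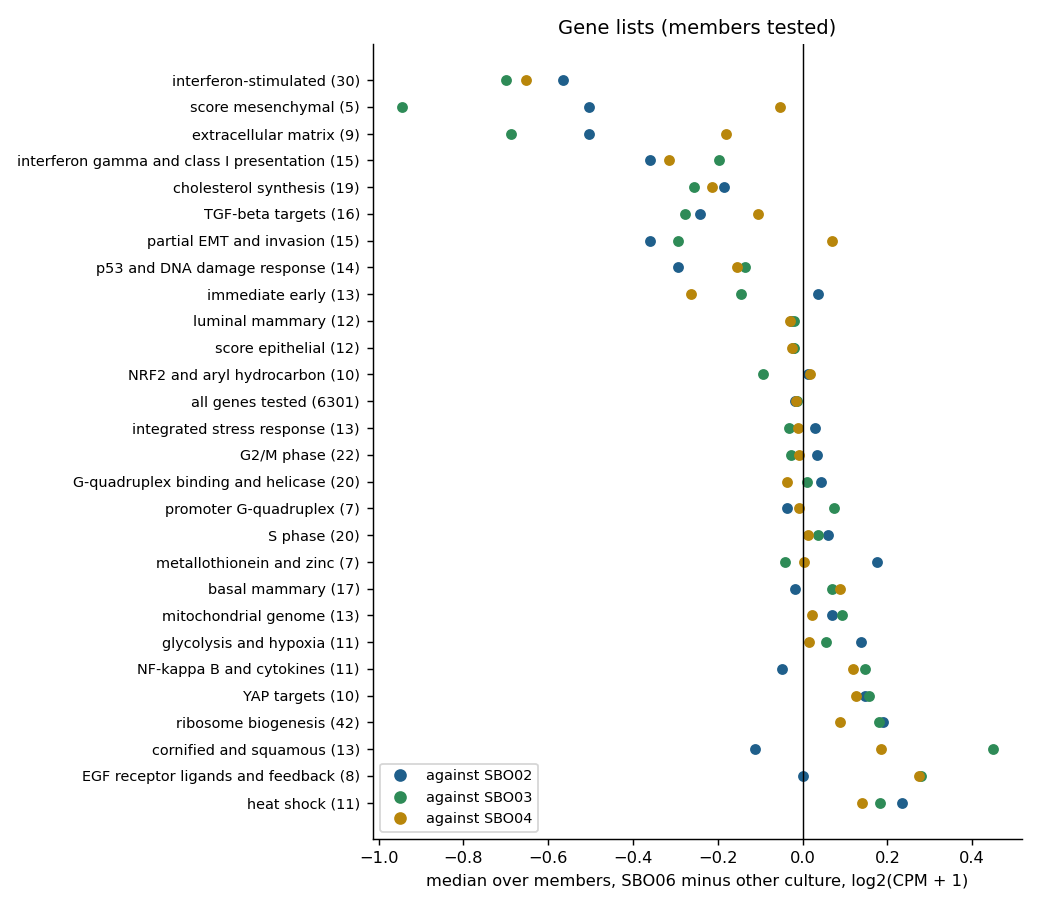
Median over the tested members of each gene list of the difference of SBO06 from SBO02, SBO03 and SBO04 in log2(CPM + 1), with the number of members tested in brackets. Interferon-stimulated genes lie at -0.56, -0.70 and -0.65, and all genes tested at -0.02, -0.01 and -0.02.

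Basal and cornified genes gave mixed values. Among 17 basal mammary genes, CAV1, COL17A1 and S100A2 were higher and KRT17 lower in all 6 comparisons, beside 9.95% and 14.2% of all genes. COL17A1, a collagen of hemidesmosomes, averaged 0.44 and was 0.20 under the top barcode rule. S100A2, a calcium-binding protein of basal cells, had 2079 and 2209 CPM in SBO06, against 1534 and 1347 CPM in SBO02, 1361 and 1221 CPM in SBO03 and 1991 and 1516 CPM in SBO04. KRT17 had 1416 and 1522 CPM in SBO06, against 1496 to 2051 CPM in the others. How reads shared among near-identical keratins were counted is not known here. LAMA3, a laminin chain, averaged -0.28. Of 13 cornified genes, S100A8 and S100A9 were higher by any amount and KRT80 and KRT10 lower. In library 2 S100A8 stood close to SBO02, with 461 of 14180600 UMIs against 158 of 4942063 UMIs. The 5 highest cells held 54.9 and 46.9% of S100A8 UMIs in SBO06, against 56.3 to 67.0% in the other 3 cultures. For S100A9 they held 45.5 and 31.8%, against 28.0 to 63.6%. KLK10, an epidermal protease, averaged 0.73 with 317 and 292 CPM in SBO06, against 303 and 350.5 CPM in SBO02 and 124 to 144 CPM in SBO03 and SBO04. ECM1 averaged -0.29.

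SBO01, which was compared for position only, stood beyond SBO06 for many of these genes but not for all. All 15 genes named as lowest were lower again in SBO01 in both libraries, and 9 of the 15 named as highest were higher again. The share of all genes that lay beyond SBO06 in SBO01 was not computed. Many of the 15 lowest are interferon-stimulated genes that were low together in SBO01. The counts are therefore descriptions of the named genes only. For the basal keratins this did not hold in the same way. KRT5 had 518 and 630 CPM in SBO06, against 473 to 563 CPM in SBO02, SBO03 and SBO04, and 1670 and 1975 CPM in SBO01. KRT14, its partner, had 775 and 886 CPM in SBO06, against 793 to 1058 CPM in the 3 cultures, and 2357 and 2572 CPM in SBO01. KRT17 and the cholesterol list were lower in SBO06 than in the 3 cultures and higher in SBO01. Whether cells of SBO01 among those assigned to SBO06 add to its values was not tested.

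The remaining lists held few members that were higher or lower in all 6 comparisons, although some medians were not near 0. Over all genes the shares were 9.95% higher and 14.2% lower, and the counts of these lists are read beside them. Of 20 S-phase genes 2 were higher and 1 lower, and of 22 genes of the G2/M phase 1 and 2. None of the 13 genes of the mitochondrial genome, and none of 10 genes of the NRF2 and aryl hydrocarbon response, was higher or lower in all 6 comparisons. Among 20 genes for proteins that bind or unwind G-quadruplexes, NPM1, NCL and CNBP were higher at 0.13, 0.12 and 0.08 and BRIP1, a helicase, lower at -0.33. Among 7 genes with a well-known G-quadruplex in the promoter, RB1 was lower at -0.18, and CCND1, TERT and MYC averaged 0.26, 0.25 and 0.15 with overlapping groups. Of 12 luminal genes CD24 was lower and 0 were higher, of 12 epithelial genes GRHL2 was lower, and of 8 genes of EGF receptor ligands and feedback PHLDA1 was higher at 0.49, with list medians of 0.00, 0.28 and 0.27 from SBO02, SBO03 and SBO04. Of 13 immediate early genes, FOSL1 was higher, and FOS, KLF6 and JUND were lower, with list medians of 0.04, -0.15 and -0.26. Of 13 genes of the integrated stress response 1 was higher and 2 lower, and of 7 metallothionein and zinc genes 1 and 1.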

How the data were processed

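The authors deposited 1 raw count matrix of UMIs per mRNA library, with 36601 genes and 12 sample barcodes. The genome build was hg38 and the software Cell Ranger 6.0.2, Seurat 4.1.0 and bcl2fastq 2.20.0.422, per the submitters' processing notes. No source used here names the annotation release. PCR copies collapse into UMIs, and a 5' kit counts isoforms with a shared start together. HTODemux assigned cells, each library alone (Seurat 5.3.0, positive quantile 0.99, centred log ratios of SBO01 to SBO06). Doublets across barcodes were left out, no other doublet caller was run, and pairs from 1 culture stay in. UMIs were summed per barcode and library (Python 3.11.15, numpy 2.4.6, pandas 2.3.3), scaled to CPM with a pseudocount of 1, and filtered at a mean of 20 CPM over the 8 sums of SBO06, SBO02, SBO03 and SBO04. With 1 culture per barcode no test was made, and the calls are rules of size. Named genes were the 15 largest and 15 smallest by their smallest difference over the 6 comparisons, and the 2 largest and 2 smallest mean differences of each described list, of which some are not reported here. A few others (STAT2, IRF9, IRF7, B2M, CDKN1A, VIM, the keratins and members called in lists) were named after their values were seen, as were the genes examined for their highest cells and the count of any size. The members and lists were chosen with earlier results of these data known. On simulated counts the rule recovered the genes changed, which checks only that the rule was applied as written. The spread between repeat cultures is not known here, so the simulation gives no error rate for the calls on these data. The alternatives used TMM of edgeR 4.0.16 and size factors of DESeq2 1.42.0 (R 4.3.3). Promoters are from RefSeq and gene positions from GENCODE.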

Additional observations from a re-analysis of the deposited data

How the results depend on the processing

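The direction of all 30 named genes and of the medians of 9 lists was the same in every alternative tried. The 30 genes were picked for differences of 1 direction, and most alternatives reuse the same cells, so a kept direction is little evidence. Of the mean differences of these genes over the alternatives, 370 stayed within the SD between the library means and 50 moved further. Genes higher by 0.5 numbered 2. They numbered 1 under the top barcode rule (IL1B), 4 with a minimum of 5 CPM, 5 without a minimum, 1 with a pseudocount of 5 (FST), 3 at a quantile of 0.95 (with S100A7), 1 with cells thinned to 10000 UMIs (S100A7), and 4 to 5 from 1 library alone. At a size of 1 they numbered 0, and at any size above 0, an alternative added after seeing the data, 627. The genes beyond FST and IL1B were S100A7 and ABI3BP, also ANKRD22, at the lower minimums, S100A2, CCND2 and RRAD without library 1, and S100A9 and KCNMA1 without library 2. Genes lower by 0.5 numbered 12. They numbered 19 under the top barcode rule, of which 7 were shared, 7 with all singlets, 20 and 26 at the lower minimums, 19 to 47 from 1 library alone, 1 at a size of 1 and 893 at any size. Of the 12, 9 were kept by TMM and by median-of-ratios scaling. Interferon-stimulated members lower throughout were 26 to 30 of 30 over all alternatives, with 26 when cells with more mesenchymal than epithelial UMIs were left out. For cholesterol synthesis, 13 became 8 under the top barcode rule and 9 with TMM. For the p53 response, 7 became 4 under the top barcode rule, at a quantile of 0.95, with TMM, with median-of-ratios scaling and without those mesenchymal cells, 3 with thinned cells, and 8 to 11 from 1 library alone. For glycolysis, 6 became 3 with all singlets, with thinned cells and without those mesenchymal cells. Causes were not tested, except that the counts from 1 library rest on 3 comparisons in place of 6. The median of all genes moved to 0.04 with TMM and 0.03 with median-of-ratios scaling, against -0.01. The top barcode rule gave 1377 cells of SBO06, 341 of SBO02, 1766 of SBO03 and 256 of SBO04. No paired analysis was possible because the results come from no test, and the differences were already taken within each library. SBO04, with 294 cells, had the fewest UMIs and the widest spread between libraries of the 4 cultures, which limits the comparisons with it.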

Other observations

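Most UMIs of S100A7 and SPRR2E in SBO06 came from 1 cell of each library in which they were found. S100A7, an antimicrobial protein of inflamed skin that the rule of 20 CPM left out, had 1313 UMIs in the 589 SBO06 cells of library 1, and 1 cell held 1188 of them (90.5%). In library 2 it had 277 UMIs in 473 cells, and 1 cell held 209 (75.5%). Without the 5 highest cells of each culture S100A7 stood at 1.85 and 1.64 CPM in SBO06, against 1.66 and 0.414 CPM in SBO02, 0.265 and 0.764 CPM in SBO03 and 0.877 and 0 CPM in SBO04. In SBO04 in library 2 only 2 cells held S100A7, so its 0 was fixed by leaving out 5. These levels rest on few UMIs, and 5 cells weigh more in the smaller cultures, so the cultures are not ranked by them. SPRR2E, a cornified envelope gene, had 174 UMIs in SBO06 in library 1, of which 1 cell held 158, and 0 in library 2 and in SBO02, SBO03 and SBO04. These genes were chosen after their values were seen.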
